A study of Homo sapiens with 6 samples.

Results

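The sample described here is 1 culture of parental K562 cells exposed to doxorubicin at 225 ng/ml for 48 h, read as 1 of the 6 samples of the study. K562 is an established line from the blast crisis of a chronic myelogenous leukemia. It carries the BCR-ABL1 fusion, lacks functional p53 and has an erythroid-leaning, fetal and embryonic globin programme. Genes were taken for the comparison by a fixed rule: every gene of the table that holds the treated library (labelled Parental_Doxo) beside an untreated library of the same line (Parental_2). A total of 29566 genes had a read in either of these libraries, out of 37767 genes listed in the whole series. The untreated sample is wild-type K562, labelled with the same 48 h time and no drug. It has a second library, Parental_1, in the table of the drug-tolerant clones, and both untreated libraries belong to 1 labelled sample. The other 4 samples are cell populations labelled ATC#1 to ATC#4. They grew out after a first dose of 100 ng/ml and 4 weeks in 225 ng/ml, from 480 wells of 10000 cells, of which 21 held survivors. Here they serve only as values beside the 48 h library. K562 is a single line, and nothing in the labels says whether the treated and untreated libraries came from cultures handled in parallel.

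Doxorubicin is an anthracycline that slides between DNA bases and traps topoisomerase II on cut DNA, so that double-strand breaks form and chromatin is disturbed. Cells commonly answer with checkpoint and p53 signalling, and in lines without p53 other stress and differentiation programmes can be followed instead. ATF4, the main transcription factor of the integrated stress response, drives amino acid synthesis, transport and tRNA charging when amino acids are short. Interferon-stimulated genes are switched on by STAT2, IRF9 and their partners and can respond to stray nucleic acids as well as to interferon. In erythroid cells, GATA1 and its partners raise heme enzymes and red cell membrane proteins as cells mature, and K562 is a classical model in which anthracyclines can push cells that way.

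The 48 h library held 14146994 gene counts, Parental_2 held 12537146 and Parental_1 held 20895918. Mitochondrially encoded genes took 7.49%, 4.25% and 5.07% of them. With 1 library a side there is no test, no p-value and no measure of variation between cultures. Every ratio below is therefore given against Parental_2 first and against Parental_1 second, and its interval is an exact 95% Clopper-Pearson interval that covers counting error only. CPM is the usual depth-normalised count, here after TMM scaling, which aligns libraries on the bulk of their genes. A log2 ratio was formed after adding 2 counts, in proportion to library size, to each library, and a gene counts as higher or lower when it is at least 2-fold apart and has at least 20 counts in the higher library. The fold that stands beside a log2 ratio carries no added count. For ratios of the 48 h library, the count minimum looks at that library and Parental_2 only. A gene under 20 counts in Parental_2 thus could not count as lower at 48 h. Of 13865 genes with 20 counts, 1878 (13.5%) were higher at 48 h than in Parental_2 and 1570 (11.3%) were lower. Against both untreated libraries 1339 (9.66%) were higher and 865 (6.24%) were lower. The untreated libraries themselves were not alike: by the same rule, 706 genes (5.3%) were higher and 777 (5.83%) lower in Parental_2 than in Parental_1. The balance of higher and lower genes also depends on scaling. Under library totals it was 2418 higher and 957 lower, and the median log2 ratio of all genes was 0.14 in place of -0.09. Under totals without mitochondrially encoded genes it was 2557 and 857, with a median of 0.19.

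**Figure D1:**
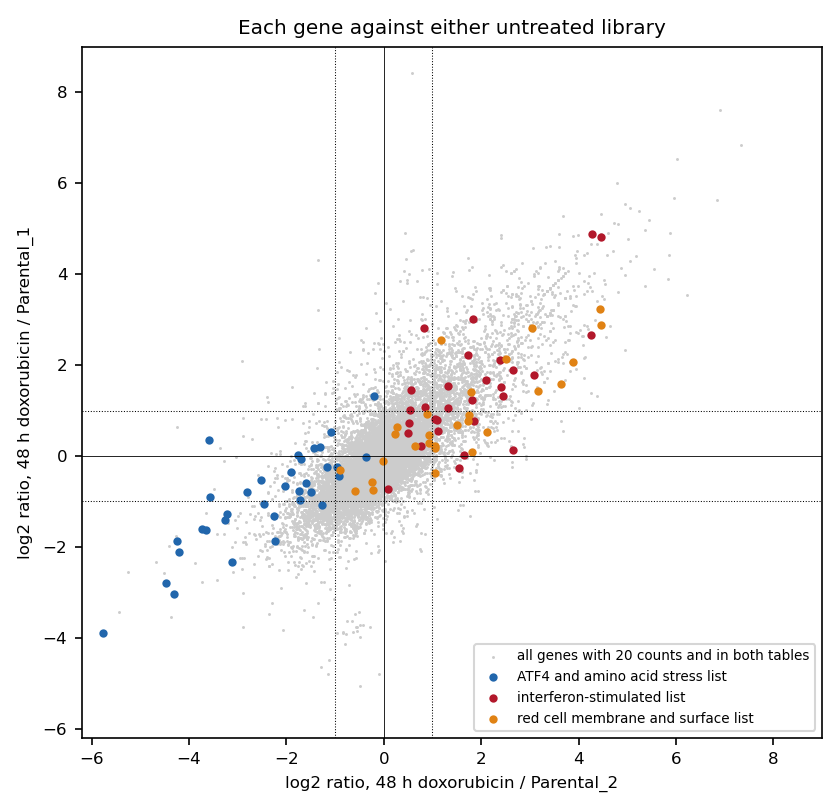
Log2 ratio of each gene at 48 h to Parental_2 (horizontal) and to Parental_1 (vertical); grey points are genes with at least 20 counts, coloured points are members of 3 gene lists, and dotted lines mark 2-fold. Both axes share the treated library; members of the ATF4 list lie left of 0 on the horizontal axis and closer to 0 on the vertical one.

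Of the 1878 genes higher than Parental_2, 1799 were on the same side against Parental_1, 1339 were at least 2-fold higher than it and 6 were at least 2-fold lower. Of the 1570 lower genes, 1463 were on the same side, 865 were at least 2-fold lower and 22 were at least 2-fold higher. Large differences were mostly upward: 269 genes were at least 8-fold higher than Parental_2 and 37 were at least 8-fold lower. The treated library also touched more genes. After thinning each library to 12537146 counts, 27523 genes had a read at 48 h against 21934 in Parental_2 and 23399 in Parental_1. Against Parental_2 that was 17.8% more protein-coding genes and 41.5% more noncoding genes and pseudogenes.

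The label was checked on cell type markers. All 10 erythroid K562 markers (among them the globins HBG1, HBG2, HBE1 and HBZ, with TFRC, GATA1, KLF1, TAL1 and NFE2) had over 20 counts in each of the 3 libraries, and their summed level was 4590 CPM at 48 h, 3615 in Parental_2 and 6114 in Parental_1. The 8 lymphoid markers summed to 15.5, 24.7 and 14.9 CPM in the same order. Fibroblast markers summed to 23.7, 1.48 and 2.59 CPM, of which COL1A1 alone was 21.1, 1.23 and 1.75. COL1A2, COL3A1, DCN and LUM had 3 to 11 counts at 48 h. Granulocyte and monocyte markers summed to 93, 40.03 and 27.9 CPM. MPO, the myeloperoxidase of granule-forming myeloid cells, had 629 counts at 48 h, 319 in Parental_2 and 0 in Parental_1. For MPO the 48 h library was thus closer to the untreated library of its own table. In a bulk culture, fewer cells of a kind and less RNA per cell cannot be told apart, and that holds for every result below.

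The drug's own targets differed from each other in level against the untreated libraries. TOP2A, the topoisomerase II of dividing cells, had 18017 counts at 48 h, 13331 in Parental_2 and 12282 in Parental_1. That is 1.02-fold of Parental_2 (0.997 to 1.04) and 0.78 on the log2 scale above Parental_1. TOP2B, the form that resting cells keep, had 2972, 6390 and 8629 counts. It was 2.85-fold lower than Parental_2 (2.73 to 2.98) and 2.48-fold lower than Parental_1. ABCB1, the efflux pump that carries doxorubicin out of cells, stayed near the lower limit of counting, with 46 counts at 48 h, 27 in Parental_2 and 52 in Parental_1. Its interval against Parental_2 ran from 0.782-fold to 2.15-fold, so no difference could be seen at this depth. In the 4 clones the same gene had 7770 to 43531 counts. Of 22 measured genes of anthracycline targets and handling, 17 reached the count minimum set above. Of these, 2 were higher and 1 was lower than Parental_2, beside 13.5% and 11.3% of all genes. The higher genes were ABCC2 and RARG. ABCC2 reached the minimum only at 48 h, so it could not have counted as lower. RARG had log2 ratios of 1.01 to Parental_2 and -0.065 to Parental_1.

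The 15 genes furthest above Parental_2 had few reads in untreated K562: CRYM, with 26 counts in Parental_1, had the most of them in either untreated library. SPINK4, a secreted protease inhibitor known from gut goblet cells, had 798 counts at 48 h, 2 in Parental_2 and 6 in Parental_1. Its ratio to Parental_2 was 301-fold (83.1 to 2490), and to Parental_1 it was 156-fold (71.3 to 426). CPXM1, a secreted member of the carboxypeptidase family (ENSG00000088882), stood at 126 CPM against 0.904 and 0.529. PGLYRP4, a secreted peptidoglycan recognition protein, had 406 counts against 3 and 3. ELF3, an ETS factor of epithelial cells, had 222 counts against 1 and 3, and CDH1, the adhesion protein E-cadherin, had 128 against 1 and 5. The counts in each untreated library are so few that the ratios of ELF3 (interval 29.8 to 6645) and CDH1 are known only roughly, but the counts at 48 h are not near 0. WNT9A, a Wnt ligand, was at least 32.2-fold higher than Parental_2 and SCAMP5, a secretory carrier membrane protein, at least 26.2-fold, since neither had a count there and 3 counts were taken as the floor. CRYM, a thyroid hormone-binding crystallin, had 748 counts against 12 and 26, and SULT2A1, a steroid sulfotransferase of liver and adrenal, had 184 against 2 and 3. TRIM29, RARRES3, FAIM2, SFRP5, PLEKHA7 and the noncoding AC015909.1 complete the 15 highest genes. In all 15, the 48 h library was at least 2-fold above Parental_1 too. That is a description and no independent support, since the 15 were chosen for a high value in the 48 h library, which also enters this second ratio.

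**Figure D2:**
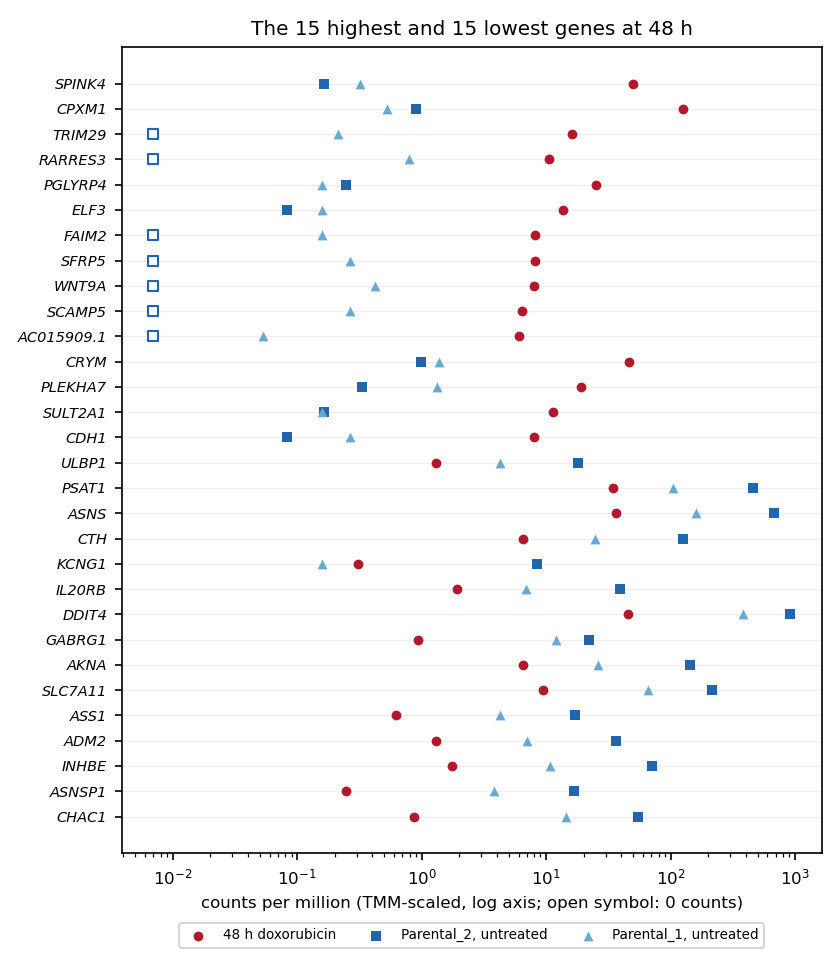
TMM-scaled CPM (log axis) of the 15 highest and 15 lowest genes by ratio to Parental_2, with 1 symbol for each library; open symbols are 0 counts, drawn at the left edge. Among the upper 15 genes the 48 h library lies right of both untreated libraries; among the lower 15 it lies left of both except for KCNG1.

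Of the 15 lowest genes, 14 were at least 2-fold below Parental_1 as well, with the same limit. The exception was KCNG1, a potassium channel subunit, with 5 counts at 48 h, 102 in Parental_2 and 3 in Parental_1, so that Parental_2 alone was high. CHAC1, a glutathione-degrading enzyme and a standard reporter of ATF4 activity, was the lowest gene, with 14 counts at 48 h, 662 in Parental_2 and 274 in Parental_1. INHBE, which encodes an activin subunit, had 28, 864 and 203 counts, and ADM2, the hormone adrenomedullin 2, had 21, 446 and 132. ASS1, the enzyme that makes argininosuccinate on the way to arginine, had 10, 209 and 80. GABRG1, a GABA receptor subunit, had 15 counts against 269 and 227, and it is the member of this group for which the untreated libraries were most alike. AKNA and IL20RB were 21.8-fold and 20.5-fold below Parental_2 and 3.99-fold and 3.55-fold below Parental_1. ASNSP1 is a pseudogene copy of ASNS, and reads of the parent gene can fall on it. SLC7A11, DDIT4, CTH, ASNS, PSAT1 and ULBP1 complete the 15 and, like CHAC1, belong to the ATF4 list that follows.

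Genes of the ATF4 and amino acid stress list were lower at 48 h than in Parental_2, and, by a smaller margin, than in Parental_1. Of 36 measured genes 34 had 20 counts. Of these 30 were lower and 0 higher than Parental_2, with a median log2 ratio of -2.13, against a share of 11.3% lower and a median of -0.09 over all genes. Against both untreated libraries 14 were lower and 0 were higher, and the median to Parental_1 was -0.79. The list was itself high in Parental_2 relative to Parental_1, by a median log2 ratio of 1.54. The summed level was 10149 CPM in Parental_2 and 4675 CPM in Parental_1. So the size of the difference rests largely on which untreated library is used, while its direction held for 28 of 34 members.

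ASNS, asparagine synthetase, had 592 counts at 48 h, 8292 in Parental_2 and 3022 in Parental_1, or 36.7, 682 and 160 CPM. The 48 h library was 18.6-fold (17.1 to 20.2) below Parental_2 and 4.36-fold below Parental_1. SLC7A11, the cystine importer that feeds glutathione, stood at 9.43, 214 and 66.4 CPM. DDIT4, an inhibitor of mTORC1, stood at 45.7, 913 and 379 CPM. Both had the 48 h library lowest by a wide margin. PSAT1 and PHGDH, enzymes of serine synthesis, had 553 and 692 counts at 48 h against 5601 and 3673 in Parental_2 and 1988 and 1408 in Parental_1. CTH, which makes cysteine from cystathionine, had 106, 1539 and 463. ATF4 itself had 1383 counts, with 4928 and 5915 in the untreated libraries, so its log2 ratio was -2.24 to Parental_2 and -1.87 to Parental_1. For ATF4 the untreated libraries lay close together. Not every member kept its direction. VLDLR had 7 counts at 48 h against 83 in Parental_2 and 6 in Parental_1. MTHFD2, the mitochondrial folate enzyme, had a log2 ratio of -1.77 to Parental_2 and 0.03 to Parental_1, and ATF3 had -1.43 and 0.18. PCK2 had -1.09 and 0.52. SLC6A9, a glycine transporter, had -0.20 and 1.31.

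**Figure D3:**
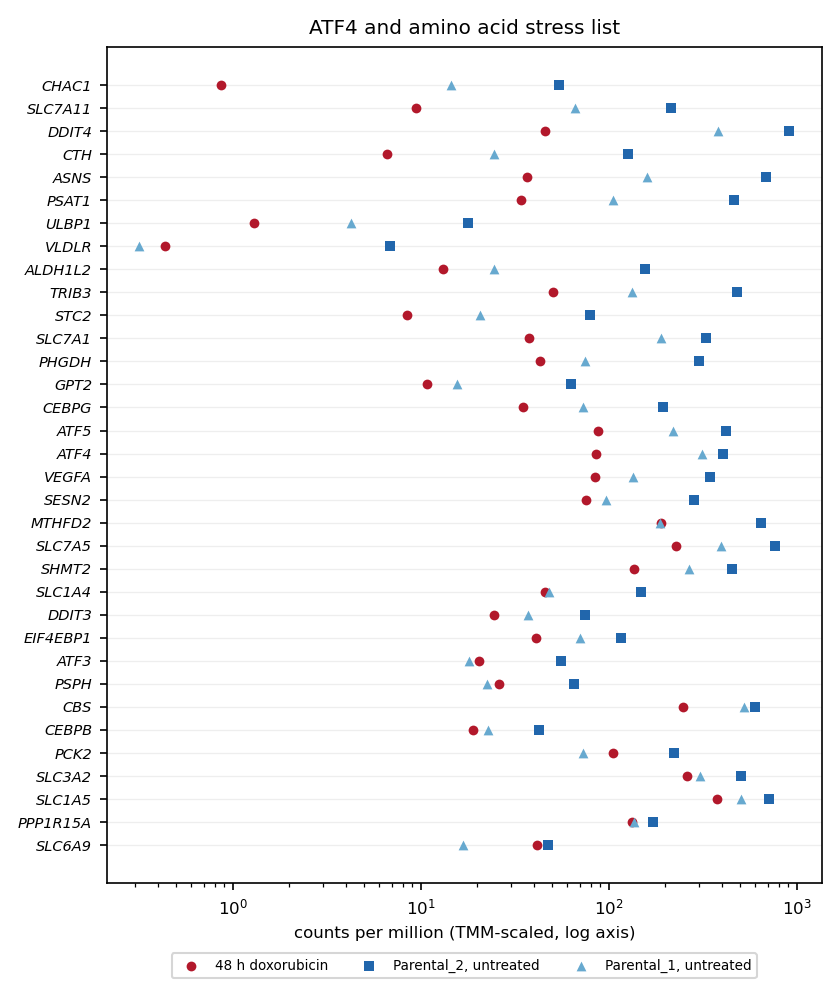
TMM-scaled CPM (log axis) of the 34 genes of the ATF4 and amino acid stress list with at least 20 counts, ordered by ratio to Parental_2, with 1 symbol for each library. The 48 h library lies left of Parental_2 in every gene shown, and Parental_1 lies between them in most.

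Promoters of ASNS and CHAC1 are shown because both lay among the 15 lowest genes and both hold the composite motif that ATF4 and C/EBP factors read. They are the 250 bases before the RefSeq start on GRCh38.p14, given 5′ to 3′ on the gene's strand, with the motif TGATGNAA, or its reverse complement, in capitals. Some GENCODE transcripts start inside these windows.
ASNS (chr7:97872409-97872658, minus strand): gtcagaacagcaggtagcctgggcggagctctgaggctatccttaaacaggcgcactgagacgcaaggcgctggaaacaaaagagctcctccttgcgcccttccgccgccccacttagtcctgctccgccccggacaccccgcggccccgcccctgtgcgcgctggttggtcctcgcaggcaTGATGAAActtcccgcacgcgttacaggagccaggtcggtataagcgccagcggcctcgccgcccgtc
CHAC1 (chr15:40953221-40953470, plus strand): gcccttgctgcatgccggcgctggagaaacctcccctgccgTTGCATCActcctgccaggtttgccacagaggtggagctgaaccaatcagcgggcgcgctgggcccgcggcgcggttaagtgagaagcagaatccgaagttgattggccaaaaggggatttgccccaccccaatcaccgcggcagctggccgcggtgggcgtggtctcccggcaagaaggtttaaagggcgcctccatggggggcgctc
The ASNS match is TGATGAAA on the gene's strand, 68 to 61 bases before the start. The CHAC1 match is TGATGCAA on the other strand, 209 to 202 bases before the start. On both strands the motif was found in 3 of the 27 list members with a promoter in the table, the third being ATF3. It was found in 3.19% of all 27305 promoters and in 1.44% of those of protein-coding genes with 20 counts. Other lists held it too, in 2 of 13 tRNA synthetases, 2 of 19 red cell membrane genes and 1 of 23 mitosis genes. None of 22 interferon-stimulated and 10 heme genes did. These matches are a description of letters, not of binding.

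Most cytosolic tRNA synthetases, which load amino acids on tRNA, were lower than Parental_2. All 20 measured genes had 20 counts, of which 15 were lower and 0 higher than Parental_2, and 9 lower than both, beside 11.3% and 6.24% of all genes. The median log2 ratio was -1.26 to Parental_2 and -0.91 to Parental_1. WARS, the tryptophan enzyme, stood at 96.7 CPM against 894 and 269, GARS, for glycine, at 155 against 861 and 325, and YARS, for tyrosine, at 123 against 595 and 370. QARS was the only member that was not below Parental_2, with a log2 ratio of 0.07. Endoplasmic reticulum chaperones and genes of the unfolded protein response had 9 of 18 lower and 0 higher than Parental_2, and 4 lower than both, with medians of -0.99 and -0.70. HERPUD1, a component of protein disposal at the reticulum, had 237 counts at 48 h, 1209 in Parental_2 and 679 in Parental_1. XBP1, the factor that IRE1 activates by splicing, had 605, 2252 and 1358. CALR, calreticulin, was above Parental_2 by 0.44 and below Parental_1, at -0.14.

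Most of the interferon-stimulated genes that were counted were higher than Parental_2. Of 40 measured, 29 had 20 counts. Of these, 21 were higher and 0 lower than Parental_2, and 14 were higher than both, beside 13.5% and 9.66% of all genes. The median log2 ratio was 1.64 to Parental_2 and 1.24 to Parental_1. Since a gene with few counts can only enter through the library where it is high, these figures describe the members that were counted and not the whole list: 7 of the 29, and 5 of the 14, had fewer than 20 counts in both untreated libraries. Members under 20 counts in Parental_2 alone, such as IFI6, IRF9, USP18 and IFIH1, also entered only through the 48 h library. None of these could have counted as lower than Parental_2. RSAD2, the antiviral enzyme viperin, had 1069 counts at 48 h and 40 in each untreated library. Scaled, that was 66.3 CPM against 3.29 and 2.12, or 20.2-fold (14.7 to 28.4) and 31.3-fold (22.8 to 44.1). TRIM22, an antiviral ubiquitin ligase, had 195 counts against 5 and 6. IFI6, a mitochondrial interferon-induced protein, had 268 against 9 and 48, so it was 22.5-fold above Parental_2 and 6.54-fold above Parental_1. CMPK2, the neighbour of RSAD2 and a nucleotide kinase, had 1677 against 381 and 420.

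STAT2, a transcription factor of interferon signalling, had 1884 counts against 984 and 1089, giving log2 ratios of 0.53 and 1.02. IRF9, its DNA-binding partner, had 42, 18 and 42 counts. ISG15, the ubiquitin-like modifier, had 382, 115 and 214. Some members were high in Parental_1 also: OAS3, which makes the messenger that activates RNase L, had 272 counts at 48 h, 31 in Parental_2 and 290 in Parental_1. USP18 had 75, 17 and 87, and IFIH1, the RNA sensor MDA5, had 43, 10 and 61. BST2 was not apart, with log2 ratios of 0.08 and -0.72. Of 16 measured genes that sense nucleic acids in the cytosol and signal from them, 11 reached the count minimum set above. Of these, 2 were higher and 0 lower than Parental_2, beside 13.5% and 11.3% of all genes. Only 1, MB21D1, was higher than both, beside 9.66% of all genes. It reached the minimum only at 48 h, so it could not have counted as lower. DHX58, the other gene higher than Parental_2, had 11 counts in Parental_2 and was under the same limit. TMEM173, which encodes STING, had -0.48 and 0.06, and MAVS, the adaptor of the RNA sensors, had 0.84 and 0.73. HLA class I presentation genes were higher against Parental_2 in 5 of 13 and against both in 1, beside 13.5% and 9.66% of all genes. Their median was 0.85 to Parental_2 and 0.00 to Parental_1. The gene higher than both, NLRC5, likewise reached the count minimum only at 48 h. PSMB9, higher than Parental_2 alone, had 2 counts in Parental_2 and entered in the same way.

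Promoters of RSAD2 and IFI6 are shown because both genes were far above both untreated libraries and both hold the core of the interferon-stimulated response element. Capitals mark GAAANNGAA in the 250 bases before the RefSeq start on GRCh38.p14.
RSAD2 (chr2:6865635-6865884, plus strand): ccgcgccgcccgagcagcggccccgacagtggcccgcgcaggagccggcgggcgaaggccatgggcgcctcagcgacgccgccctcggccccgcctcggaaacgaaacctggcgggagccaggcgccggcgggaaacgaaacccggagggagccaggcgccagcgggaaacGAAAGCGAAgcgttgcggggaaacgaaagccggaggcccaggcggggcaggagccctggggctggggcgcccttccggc
IFI6 (chr1:27672193-27672442, minus strand): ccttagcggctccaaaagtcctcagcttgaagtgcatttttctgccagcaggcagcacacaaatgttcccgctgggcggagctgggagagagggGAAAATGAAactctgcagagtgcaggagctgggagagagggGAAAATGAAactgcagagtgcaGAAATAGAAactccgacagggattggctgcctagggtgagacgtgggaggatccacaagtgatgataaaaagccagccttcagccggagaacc
RSAD2 held 1 match, GAAAGCGAA, 79 to 71 bases before the start. IFI6 held 3, the nearest being GAAATAGAA at 93 to 85 bases. On either strand the letters were found in 12 of 22 list members with a promoter in the table, in 7.06% of all promoters and in 5.37% of those of protein-coding genes with 20 counts. The list was drawn up from genes known to respond to interferon, so that share describes the list.

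Genes of the red cell surface and membrane were higher than Parental_2 in 17 of 28, and lower in 0, with a median log2 ratio of 1.12. Against both untreated libraries 9 were higher, beside 13.5% and 9.66% of all genes, and the median to Parental_1 was 0.58. CA2, 1 of the 9, reached the count minimum set above only at 48 h, so it could not have counted as lower. EPB42, the membrane skeleton protein 4.2, had 594 counts at 48 h, 19 in Parental_2 and 72 in Parental_1. It was 23.6-fold (14.97 to 39.5) above the first and 9.67-fold (7.56 to 12.5) above the second. CA1, carbonic anhydrase 1, stood at 64.4 CPM against 2.79 and 8.57, and AQP1, the water channel, at 90.9 against 6.0 and 21.4. SLC4A1, the band 3 anion exchanger, had 399 counts against 32 and 172, and AHSP, the chaperone of alpha globin, had 258 against 14 and 99. For these genes the order was the same, with the 48 h library highest, then Parental_1, then Parental_2. EPB42 and AHSP were under the count minimum in Parental_2, so they too could not have counted as lower than it. RHCE and GYPB were also higher than both, but RHD with RHCE, and GYPB with GYPE, are near-identical copies between which counting may split reads. ANK1, TFRC and GYPC, all strongly read in K562, were not higher, with log2 ratios of -0.21, -0.24 and -0.59 to Parental_2.

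In heme synthesis 5 of 12 genes were higher than Parental_2 and 4 higher than both, beside 13.5% and 9.66% of all genes, and 0 were lower. The medians were 0.87 and 0.74. ALAS2, the erythroid form of the first enzyme of the pathway, had 7539 counts at 48 h, 447 in Parental_2 and 1944 in Parental_1, which is 468, 36.7 and 103 CPM. It was 12.7-fold (11.6 to 14.0) and 4.54-fold (4.32 to 4.78) higher. PPOX, which makes protoporphyrin, was 3.62-fold and 3.70-fold higher, at 172 CPM against 47.6 and 46.5. UROS, which closes the porphyrin ring, had log2 ratios of 1.36 to Parental_2 and 1.39 to Parental_1. ALAS1, the form that all cells use, had 0.68 and 0.77.

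Globins did not share this pattern. All 8 with 20 counts lay above Parental_2, 2 of them by 2-fold, but 6 of the 8 lay below Parental_1, and the median log2 ratio was 0.73 to the first and -0.55 to the second. HBG2 had 11078 counts at 48 h, 6481 in Parental_2 and 20715 in Parental_1. HBZ, embryonic zeta globin, had 5844, 1057 and 5394. The untreated libraries differed more from each other, by a median log2 ratio of -1.46, than either did from the 48 h library. HBG1 with HBG2 and HBA1 with HBA2 are near-identical copies whose separate counts are uncertain. Erythroid regulators were not 2-fold apart from both libraries: GATA1 had log2 ratios of -0.16 and -0.65, KLF1 0.66 and -0.09, and TAL1 0.96 and 0.59.

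Promoters of ALAS2 and EPB42 are shown as the leading heme and membrane genes, with the GATA letters AGATAA, or the reverse complement TTATCT, in capitals.
ALAS2 (chrX:55030978-55031227, minus strand): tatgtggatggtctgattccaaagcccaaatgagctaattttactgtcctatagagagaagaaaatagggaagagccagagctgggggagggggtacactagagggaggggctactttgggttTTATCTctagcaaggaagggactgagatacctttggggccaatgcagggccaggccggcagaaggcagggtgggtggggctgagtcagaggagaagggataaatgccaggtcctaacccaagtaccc
EPB42 (chr15:43221019-43221268, minus strand): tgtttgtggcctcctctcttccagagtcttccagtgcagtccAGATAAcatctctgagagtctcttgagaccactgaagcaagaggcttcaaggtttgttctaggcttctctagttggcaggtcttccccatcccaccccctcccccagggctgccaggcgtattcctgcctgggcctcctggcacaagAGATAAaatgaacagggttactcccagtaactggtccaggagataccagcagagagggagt
ALAS2 held 1 match on the other strand, 127 to 122 bases before the RefSeq start, and EPB42 held 2. Of 19 membrane genes with a listed promoter, 6 held a match, as did 2 of 10 heme genes, compared with 9.37% of all promoters.

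BTG1 and BTG2, which restrain division, were higher at 48 h, while p53 targets were split against Parental_2 alone. BTG2, which slows cell division and shortens messenger tails (ENSG00000159388), stood at 296 CPM at 48 h against 19.2 and 30.1. It was 9.84-fold (9.02 to 10.8) above Parental_1. BTG1, its closest relative, had 1264 counts against 382 and 494 and was 2.50-fold and 3.00-fold higher. BTG3, TOB1 and TOB2 were not higher by 2-fold. Of 22 p53 targets with 20 counts, 5 were higher and 4 lower than Parental_2, beside 13.5% and 11.3% of all genes. Against both, 5 were higher and 0 lower, beside 9.66% and 6.24%, and the medians were -0.13 and 0.05. The 5 higher genes were BTG2, TP53INP1, CDKN1A, TP53I3 and DDB2. CDKN1A, the p21 inhibitor of cell cycle kinases, had 671 counts at 48 h, 133 in Parental_2 and 328 in Parental_1. TP53INP1 had 692, 124 and 143. MDM2, the classical feedback target, had log2 ratios of -0.87 and -0.83, and BAX, a mediator of cell death, had -0.02 and -0.28.

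Most genes of DNA replication and of mitosis were within 2-fold of both untreated libraries. Of 34 replication and nucleotide genes, 2 were higher and 1 lower than Parental_2, beside 13.5% and 11.3% of all genes. Their medians were 0.21 and 0.00. Of 27 genes of G2 and mitosis, 1 was higher and 0 were lower, with medians of -0.08 and 0.31. TK1, which supplies thymidine nucleotides, was 2.81-fold above Parental_2 and 2.27-fold above Parental_1. KIF20A, a mitotic kinesin, was 2.21-fold and 2.26-fold higher. POLA1, the catalytic subunit of the priming polymerase, was 2.42-fold and 2.34-fold lower. MKI67 had log2 ratios of 0.32 and 0.21, and CCNB1 had -0.10 and 0.02. Of 33 clustered histone genes, 10 were higher and 2 lower than Parental_2. Against both, 9 were higher and 1 lower, beside 9.66% and 6.24% of all genes. HIST1H2AL and HIST1H2AM reached the count minimum set above only at 48 h, so neither could have counted as lower. HIST1H2AM is 1 of the 9. Clustered histone genes are near-identical copies, mostly without a poly(A) tail, and the libraries were prepared from messenger RNA.

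ERK and STAT5 act downstream of BCR-ABL1, and their output genes were split, with more lower than higher. Of 17 such genes, 9 were lower and 2 higher than Parental_2, beside 11.3% and 13.5% of all genes. Against both libraries 5 were lower and 2 higher, beside 6.24% and 9.66%. The medians were -1.08 and -0.65, with 5 members above Parental_2 and 6 above Parental_1. SPRY1, 1 of the 2 higher than both, had 20 counts only at 48 h, so it could not have counted as lower. PIM1, a kinase gene that STAT5 drives, had 3025 counts at 48 h, 8961 in Parental_2 and 13493 in Parental_1, so it was 3.93-fold and 3.81-fold lower. SPRED1, a brake on the RAS pathway, was 4.90-fold and 5.19-fold lower. SPRY4 was 3.58-fold and 2.62-fold lower. DUSP5, a phosphatase that ERK induces, went the other way, with 160 counts against 47 and 54. In the BCL2 family 2 of 13 genes were higher and 3 lower than Parental_2. BMF, a BH3-only promoter of cell death, had 419 counts at 48 h against 25 and 116 and was 12.6-fold and 4.23-fold higher. BCL2, which protects against death, had 25 counts against 151 and 115 and was 8.01-fold and 3.93-fold lower. BCL2L1, the main survival factor of erythroid cells, was 2.31-fold and 1.90-fold lower.

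Counts for epithelial, granulocytic and lysosomal genes stand beside 13.5% of all genes higher than Parental_2 and 9.66% higher than both. Of 15 measured epithelial and fibroblast genes 7 had 20 counts, of which 4 were higher than both libraries (KRT19, COL1A1, CDH1 and TRIM29) and 0 lower. CDH1 and TRIM29 had 20 counts only at 48 h, and COL1A1 had 15 in Parental_2. None of these could have counted as lower than Parental_2, and the result does not describe the whole list. EPCAM and KRT18 had log2 ratios of -0.45 and -0.25 to Parental_2. KRT19, a simple-epithelium keratin, stood at 318 CPM against 97.3 and 131. Of 19 measured granulocyte and monocyte genes 11 had 20 counts, of which 4 were higher than Parental_2, 3 of them also than Parental_1, and 0 lower. CEBPE and ITGB2 had 20 counts only at 48 h. CEBPE, a factor of granulocyte maturation, had 93 counts against 3 and 3, and CSF3R, the G-CSF receptor, had 239 against 37 and 34. Among the 8 granulocyte and monocyte markers checked above, S100A9 was at 0 and S100A8, FCN1 and CD14 had 2, 3 and 7 counts at 48 h. ELANE had 14 counts against 5 and 0, and CSF1R had 19 against 3 and 3. LYZ was well counted, with 825 against 154 and 511, and MPO is given above. Of 25 lysosome and autophagy genes, 8 were higher and 3 lower than Parental_2, and 5 were higher and 1 lower than both. CTSB, cathepsin B, stood at 546 CPM against 128 and 195, and NEU1, the lysosomal sialidase, at 332 against 89.5 and 94.3.

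Of 31 histone methyltransferases and demethylases, 7 were lower and 1 higher than Parental_2, and 4 were lower and 0 higher than both, beside 11.3% and 6.24% of all genes lower. Their medians were -0.56 and -0.55. SMYD3 was 3.42-fold and 3.01-fold lower, and KDM6A, which removes the H3K27 mark, was 2.67-fold and 3.04-fold lower. SETD7 reversed, with 305 counts at 48 h, 726 in Parental_2 and 165 in Parental_1. EZH1 was 2.24-fold and 1.76-fold higher. Of 27 genes of DNA damage response and repair, 5 were lower and 0 higher than Parental_2 and 4 were lower than both. Their medians were -0.37 and -0.17, and 10 of the 27 lay above Parental_2. XRCC4, which joins broken ends, had 123 counts against 317 and 329. H2AFX, the histone variant marked at breaks, had 990 against 2270 and 3351. By the median, lower genes of both lists were longer, though not each one: H2AFX spans 1.61 kb and KDM6B 14.9 kb. The median span was 239 kb for the 7 lower histone methylation genes against 64.1 kb for the other 24, and 187 kb for the 5 lower repair genes against 76.9 kb for the other 22. What part gene span has in these lists was not tested. In the ATF4 list no gene exceeded 100 kb.

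Across all protein-coding genes, the share lower at 48 h was higher among long genes. Span is the distance from gene start to gene end in GENCODE 29, introns included. Of 822 genes over 200 kb with 20 counts, 36.1% were lower than Parental_2 and 24.1% lower than both, against 6.21% and 3.56% of 982 genes under 5 kb. Scaling by library totals brought the shares lower than both to 12.2% and 1.93%. The share that was higher was likewise largest over 200 kb, though by a small margin against Parental_2: 15.8% were higher than Parental_2 and 13.7% higher than both, against 14.8% and 9.16% under 5 kb. Among genes of at least 500 counts, a limit chosen after the data were seen, the shares over 200 kb were 53.7% and 38%, with 3.00% higher than Parental_2 and 1.67% higher than both. There the median log2 ratio of 300 genes was -1.07 to Parental_2 and -0.89 to Parental_1. Between the untreated libraries the order was the opposite: in Parental_2 against Parental_1 the median was 0.16 for these 300 genes and -0.29 for 402 genes under 5 kb. The same long genes had medians of -0.36 to -0.07 in the 4 clones against Parental_1. The 776 genes lower than both had a median span of 98.4 kb, while it was 32.4 kb for the 1083 that were higher than both and 32.3 kb for all 12003.

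**Figure D4:**
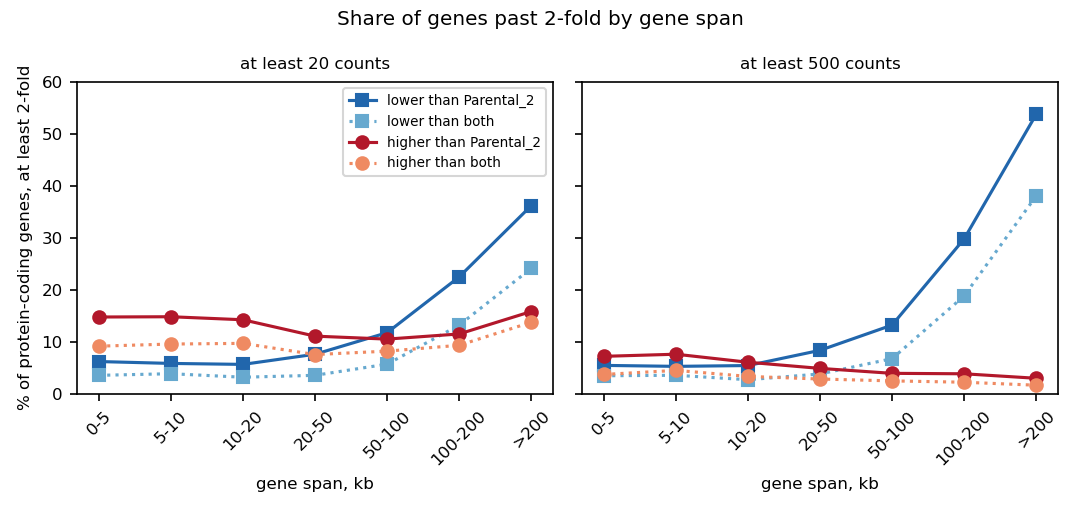
Share of protein-coding genes at least 2-fold lower (blue) or higher (red) at 48 h than Parental_2 (solid) or than both untreated libraries (dotted), by gene span in kb, for genes with at least 20 counts (left) and at least 500 counts (right). The share lower than Parental_2 goes from 6.21% under 5 kb to 36.1% over 200 kb on the left and from 5.47% to 53.7% on the right; the share higher is 14.8% and 15.8% at these ends on the left and 7.21% and 3.00% on the right.

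Single long genes show the size of it. Of the 100 longest genes with 500 counts, all over 311 kb, 93 lay below Parental_2 and 86 below Parental_1, 48 were lower than both by 2-fold, and 2 were higher than both. Most well-counted genes lay below too. Of all 6451 protein-coding genes with 500 counts, 4162 lay below Parental_2 and 4433 below Parental_1. By 2-fold, 491 of the 6451 were lower than both and 191 higher than both. EXOC4, an exocyst subunit, spans 814 kb on chromosome 7 (133253073 to 134066589 on GRCh38) and had 489 counts at 48 h, 1272 in Parental_2 and 1870 in Parental_1. LRBA, a trafficking protein gene of 751 kb, had 741, 2937 and 4099. CDKAL1, a tRNA-modifying enzyme gene of 698 kb, had 167, 529 and 733. Not all long genes were lower. RABGAP1L, of 836 kb, had log2 ratios of -0.25 and 0.07, and RUNX1, a blood lineage factor whose annotated span is 1217 kb, had -0.95 and -0.07.

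**Figure D5:**
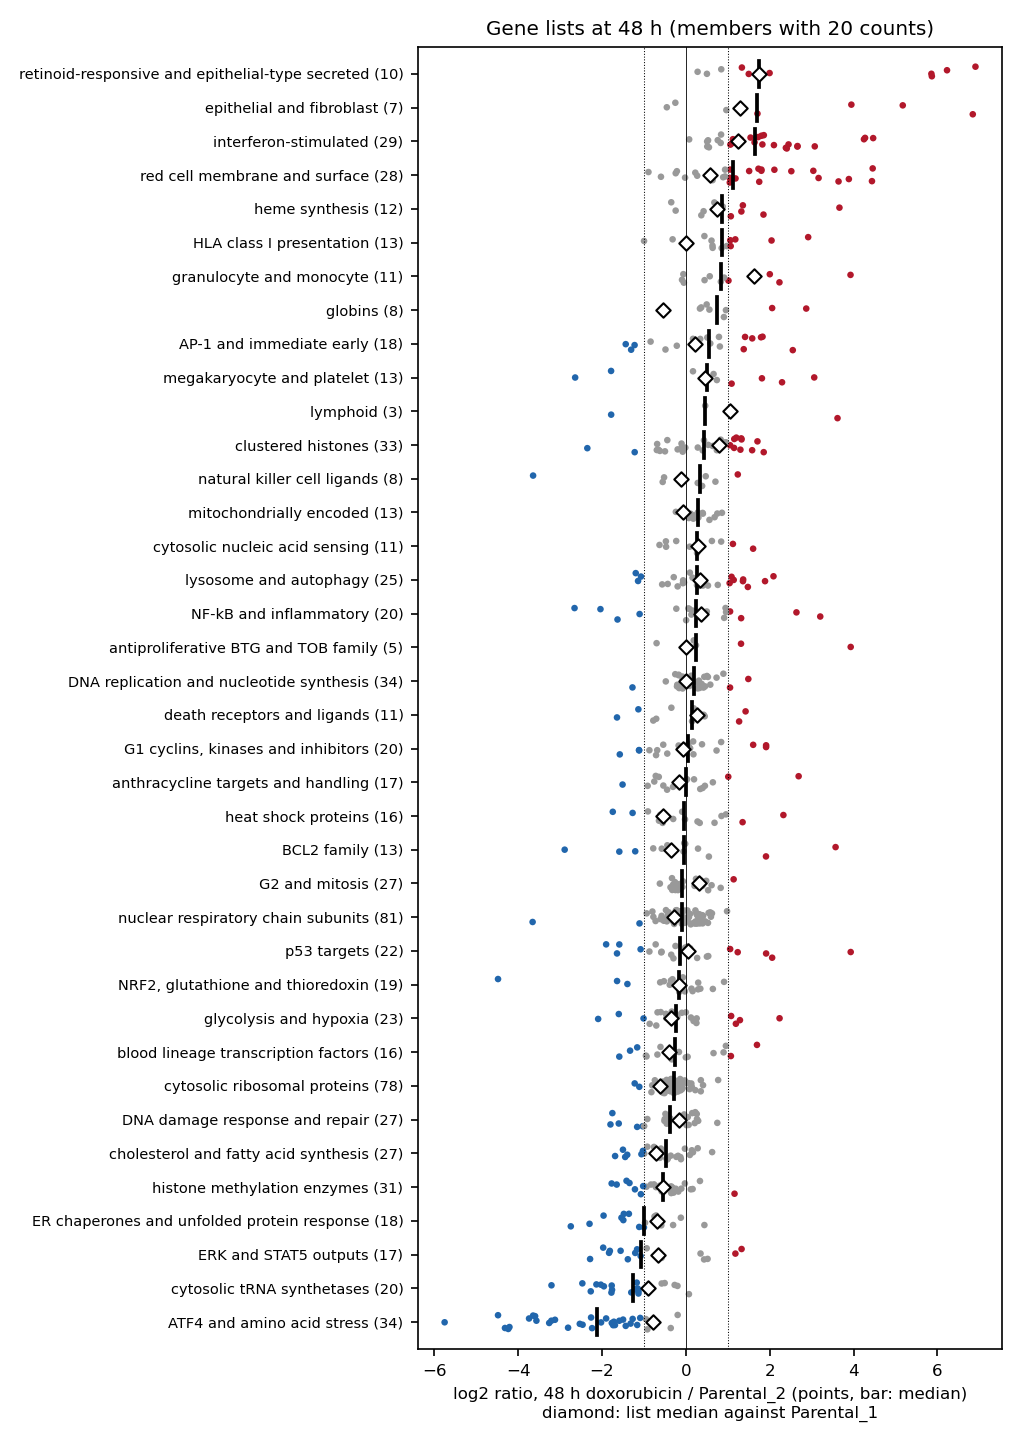
Log2 ratio to Parental_2 of list members with at least 20 counts (points; red at least 2-fold higher, blue at least 2-fold lower), with the list median as a bar, its median against Parental_1 as a diamond and the number of members in brackets, for all 38 lists in order of median. The retinoid-responsive and epithelial-type secreted list has the highest median, 1.75, followed by epithelial and fibroblast genes at 1.71 and interferon-stimulated genes at 1.64, and the ATF4 list has the lowest, -2.13; the diamond of the globins lies on the other side of 0 from its bar.

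The list of retinoid-responsive and epithelial-type secreted genes had 14 measured members, of which 10 had 20 counts. Of these, 7 were higher than both untreated libraries and 0 lower, beside 9.66% and 6.24% of all genes. Its medians were 1.75 and 1.74. Its members CPXM1, RARRES3, FAIM2 and SFRP5 are among the 15 highest genes above, and 6 of the 7 had 20 counts only at 48 h, so these counts describe a choice of members made with earlier results known. TGM2, a protein cross-linking enzyme that retinoids induce, is the exception, with 5933 counts at 48 h, 1581 in Parental_2 and 3291 in Parental_1. STRA6, a receptor for retinol carried in blood, had log2 ratios of 0.84 and -1.72.

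Cholesterol and fatty acid synthesis had 6 of 27 lower and 0 higher than Parental_2, and 5 lower and 0 higher than both, with medians of -0.46 and -0.72. The counts in this paragraph stand beside 11.3% of all genes lower and 13.5% higher than Parental_2. Against both, those shares were 6.24% and 9.66%. CYP51A1, a demethylase of sterol synthesis, had 35 counts against 75 and 216. NF-kB and inflammatory genes were split, 4 higher and 4 lower than Parental_2 of 20, and 3 higher and 4 lower than both. Of the 20, 5 had 20 counts only at 48 h and could enter only as higher, among them 2 of the 3. RELB, also of the 3, had 16 counts in Parental_2 and likewise could not have counted as lower. RELB had 144 counts against 16 and 43, while the chemokine gene CXCL3 had 21 against 109 and 136. Of 18 AP-1 and immediate early genes 6 were higher and 3 lower than Parental_2, and 3 higher and 2 lower than both. KLF4 had 81 counts against 9 and 13. KLF4 and EGR3, 2 of the 3 higher than both, had 20 counts only at 48 h. Blood lineage factors had MYB, which keeps progenitors dividing, 3.01-fold and 2.50-fold lower, and GFI1, a repressor of the granulocyte line, at 134 counts against 30 and 33. HSPA1A, an inducible heat shock protein, was 5.06-fold above Parental_2 and only 1.28-fold above Parental_1, and it shares nearly all of its sequence with HSPA1B.

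In the 4 clones, which grew in the same drug concentration, leading genes of the 48 h library stood at other levels. Clone ratios are given against Parental_1 of their own table, which also enters the second ratio of each gene above. CPXM1 stood at 41.2, 28.6, 89.1 and 8.39 CPM in ATC#1 to ATC#4, beside 126 at 48 h. BTG2 stood at 167, 159, 147 and 265 CPM, beside 296. RSAD2 stood at 9.89, 6.51, 5.71 and 11.3 CPM, beside 66.3. CHAC1 stood at 6.99, 17.2, 5.50 and 13.8 CPM, beside 0.868 at 48 h and 14.5 in Parental_1. SPINK4 and CDH1 had log2 ratios of 0.62 to 1.86 and of -0.18 to 0.30 in the clones, beside 6.84 and 4.41 at 48 h. The median of the ATF4 list was -0.34, 0.48, 0.31 and 0.08 in the clones, beside -0.79 at 48 h, and that of the interferon list was 0.99, 0.93, 0.67 and 0.93, beside 1.24. For CPXM1, BTG2 and RSAD2 the clones lay between the untreated libraries and the 48 h library, and for CHAC1 they lay around Parental_1 or below it.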

How the data were processed

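Messenger RNA was sequenced from 6 samples of K562 cells, with TRIzol extraction and a stranded Illumina kit, per the labels' protocols. The authors deposited whole-number read counts per gene, each raised by 1, beside a log2 ratio of the same values. That ratio was recomputed from the counts for 29566 genes, and 0 were off by more than 0.001. One was subtracted from each deposited count, and pairs given as missing were read as 0. The submitters' processing notes name GRCh38, but only 617 of 35158 gene starts lie within 10 bases of it, so positions and spans come from GENCODE 29 by Ensembl ID. Sources used here name no aligner or counter and do not say whether strand was used in counting, so overlapping antisense genes could not be separated.

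Libraries were scaled by TMM (edgeR 4.0.16, R 4.3.3), with DESeq2 1.42.0 size factors as an alternative. A log2 ratio carries a prior count of 2, and intervals are exact at 95% (SciPy 1.17.1). Tables were joined by Ensembl ID over 30341 genes. Named genes are the 4 markers, TOP2A, TOP2B, ABCB1, the 15 highest and 15 lowest with at least 50 counts, and up to 3 members each way per list. Other members are named as examples or exceptions, after their values were seen. Some genes that this rule names are not reported here. Promoters came from RefSeq on GRCh38.p14. The genes and lists were chosen with earlier results of these data known. The comparison was checked on simulated counts. Alternatives were other scalings, prior counts, count minimums and reference libraries.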

Additional observations from a re-analysis of the deposited data

How the results depend on the processing

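No paired analysis was possible because each side of the comparison holds 1 library. Genes lower than Parental_2 numbered 957 under library totals and 857 under totals without mitochondrially encoded genes, and genes lower than both untreated libraries numbered 356 and 313. Every one of these 957 and 857 genes was among the 1570. Requiring 50 counts gave 1160 genes higher than Parental_2, 786 higher than both and 504 lower in Parental_2 than in Parental_1. With 10 counts, 2030 were higher than both. With no filter, 5285 were higher than Parental_2 and 3514 than both. An interval wholly past 2-fold left 1045 higher and 945 lower. With Parental_1 in place of Parental_2, and 20 counts in that pair, the globin median was -0.49, and against the summed untreated libraries it was -0.16. The same replacement turned the log2 ratio of 7 named genes, to 0.64 for KCNG1, -0.065 for RARG, 0.27 for TNFRSF10B, -0.41 for HLA-C, 0.18 for ATF3, 1.10 for SETD7 and 0.55 for WIPI1. No other gene chosen by the naming rule and 2-fold apart, and no other list with a median past 0.5, changed sign under the alternatives run. Genes named only as examples or exceptions were not part of these runs. Some of them, such as MTHFD2, PCK2 and TF, lay below Parental_2 and above Parental_1. The median over all alternatives ranged from -2.24 to -0.79 for the ATF4 list and from 1.15 to 1.90 for the interferon list. Under library totals 12.2% of genes over 200 kb and 1.93% of genes under 5 kb were lower than both, and with 500 counts 38% of the former were. The cause of these shifts was not tested. One library a side leaves variation between cultures unknown, and genes with few counts in an untreated library have wide intervals.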

Other observations

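Genes chosen here after their values were seen include several that liver cells are known for. AFP, the fetal serum protein alpha-fetoprotein, had 333 counts at 48 h, 11 in Parental_2 and 22 in Parental_1. CYP3A5, a drug-metabolising cytochrome, had 832 counts against 41 and 71. HNF4A, a nuclear receptor of liver and gut, had 74 counts against 3 and 3, and CREB3L3, a liver factor bound to the endoplasmic reticulum, had 118 against 1 and 5. ABCB11, the bile salt pump, had 148 counts against 3 and 6. Complement genes C3 and C5 had 585 and 167 counts, against 44 and 19 in Parental_2 and 57 and 18 in Parental_1. CLU, clusterin, had 428 counts against 13 and 15. Not all liver factors were higher: FOXA2 had 13 counts against 20 and 31, and TF, transferrin, had 73 against 130 and 32. In the clones AFP had 0 to 13 counts, while C3 had 433 to 764.

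KIT, the stem cell factor receptor, had 169 counts at 48 h against 17 and 11. Both STAT5 genes were lower: STAT5A had 2665 counts against 7839 and 12154, and STAT5B had 1199 against 5065 and 4633. GNAQ and TBL1XR1, both long genes, were 5.17-fold and 5.36-fold below Parental_2. A count of at least 20 in one untreated library and 0 in the other was found for 5 genes each way. Of the 5 read only in Parental_2, MPO and CTLA4 among them, 4 had at least 20 counts at 48 h, and of the 5 read only in Parental_1, 1 did. MPO had 1, 0, 28 and 0 counts in ATC#1 to ATC#4.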
